A study of Mus musculus with 14 samples.

Results

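The m6A landscape of the haemorrhagic mouse brain was described here from all 54754 entries of the peak list that the authors made for the haemorrhage (ICH) group by comparing immunoprecipitated RNA with input RNA. The lists of the 3 groups hold 153110 peaks together. The ICH peaks lay on 17511 genes, and 126 peaks had no gene. Of these peaks, 9473 (17.3%) overlapped no peak of the sham list and no peak of the acupuncture list on the same strand, and these are called ICH-only peaks below. The share depends on the rule: it was 9.29% among peaks with a log2 IP over input of at least 1, 26.4% when 50% of the ICH peak had to be covered, and 30.0% when all 3 lists were limited to peaks spanning at most 1000 bases. They lay on 6232 of the 17511 genes (35.6%). Nearly every well-expressed gene carried an ICH peak, since 12973 of the 13748 genes whose 2 ICH input libraries averaged 1 FPKM or more had one (94.4%). FPKM, the unit of gene level here, counts sequenced fragments relative to transcript length and library size.

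N6-methyladenosine (m6A) is a methyl mark on adenosines inside messenger RNA. A writer complex built around Mettl3 and Mettl14 adds it in the nucleus, preferentially near stop codons and in long exons. Fto and Alkbh5 can remove it. Reader proteins of the YTH and Igf2bp families bind it and act on the stability, splicing and translation of the transcript. In brain, m6A is abundant on transcripts of neurons and glia. In m6A sequencing, an antibody draws marked fragments out of sheared RNA (IP), which are compared with unselected fragments (input), and a stretch with an excess of IP fragments is called a peak.

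Mice of the ICH group received autologous blood, the animal's own blood placed into the brain as a model of intracerebral haemorrhage, and gave 2 IP and 2 input libraries. Sham-operated mice gave 3 IP and 3 input libraries. The acupuncture group had the same haemorrhage and was treated by acupuncture at the point GV20 for 7 days, with 2 IP and 2 input libraries. All libraries came from poly(A) RNA of brain tissue. The strain and age of the mice, the brain region taken and the time after the bleed were not given in the sources used here, and nothing said that replicates were separate animals. The authors gave 1 peak list per group, so no peak has a replicate error, and a peak present in 1 list and absent from another is a difference between lists and not a tested difference in methylation.

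Read depth was unknown, because the deposited gene levels were FPKM. FPKM totals ranged from 179810 to 198472 over the 7 input libraries, and 23495 to 24746 genes were above 0. The 2 ICH input libraries correlated at r = 0.942, taken over genes and so not over independent replicates. The sham libraries correlated at 0.983 to 0.988 and the acupuncture libraries at 0.976. As a check of the tissue, input levels summed over the 17 genes of the synapse list were 1202 to 1691 FPKM in the ICH libraries and 1216 to 1380 FPKM in the sham libraries. Summed over the 16 genes of the microglia and macrophage list, input levels were 742 to 876 FPKM in the ICH libraries and 191 to 228 FPKM in the sham libraries. Over the 14 genes of the striatal neuron list the sums were 271 to 315 FPKM in ICH and 557 to 604 FPKM in sham, and over the 14 genes of the myelin and oligodendrocyte list 954 to 994 FPKM and 1139 to 1454 FPKM. In such tissue RNA, fewer cells of a type and less RNA per cell cannot be told apart.

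Sequences are shown where a peak covered a transcription start listed by RefSeq (build GRCm38.p6), because these are the transcript bases that could be read. Each is a 30-base window, 5′ to 3′ on the strand of the gene. Capitals mark GGAC, the core in which m6A is most often found. GGAC was searched in the first 50 transcribed bases on the transcript strand. The first 2 windows belong to genes described further below, C1qc (an ICH-only peak) and Pkp4 (a peak shared with the other lists). The next 3 belong to ICH-only peaks that begin exactly at the start of their transcript. The last, without GGAC, is the start of Wtap, a subunit of the writer complex, where an ICH-only peak lies.
C1qc (chr4:136892869-136892898, minus strand): gtctgggagaacaGGACgtctctgtgatta
Pkp4 (chr2:59161889-59161918, plus strand): tgcaaggaatgcaccagGGACagagtccgc
Nrcam (chr12:44328885-44328914, plus strand): ggagcggcgaGGACgcgcgcttcgcctggg
Gpam (chr19:55127199-55127228, minus strand): gcaaaaccatcctGGACtgttggctgctgc
Siah3 (chr14:75455988-75456017, plus strand): attcagagcccaaGGACttacagcttcctc
Wtap (chr17:12992230-12992259, minus strand): agtccgggcggggcggggccggcggcaggg

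In all, 453 ICH peaks began exactly at a RefSeq start. GGAC occurred in the first 50 bases of 101 of them (22.3%), against 6186 of all 32817 starts (18.9%). It occurred in 6 of the 30 starts at the edge of an ICH-only peak. The first transcribed base was G at 48.8% of the starts where an ICH peak began and at 35.6% of all starts, and A at 27.8% and 34.4%. A match to these letters is a description of the window and not a site. The set of all starts was not limited to expressed genes. Many peak edges fell exactly on the ends of the gene named with the peak. The lower edge did so on the gene's lower coordinate for 7205 peaks, and the upper edge on its upper coordinate for 4475. Counts of peaks that begin at a start or reach a gene end include such edges. How the authors set the edges is not given.

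Peaks also ran over microRNA genes. Of 1005 mouse hairpins in the RefSeq table, 56 were overlapped by an ICH peak spanning at most 1000 bases, and 43 lay whole inside the peak. Because poly(A) RNA was sequenced, these peaks concern primary transcripts or host messenger RNAs, and the mature microRNAs were not measured. There were 8 hairpins that were overlapped by an ICH-only peak and by no other ICH peak, and 6 of them lay whole inside it. The microRNAs named here were chosen after their values were seen. The hairpin of miR-142b, antisense to the blood-cell microRNA miR-142, lay whole inside an ICH-only peak. Those of let-7b and let-7c-2, whose 5p arms share a seed, lay whole inside shared peaks. Their mature sequences are shown because the peaks cover them, with the seed, bases 2 to 8, in capitals.
mmu-miR-142b: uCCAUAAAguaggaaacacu
mmu-let-7b-5p: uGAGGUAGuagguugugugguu
mmu-let-7c-5p: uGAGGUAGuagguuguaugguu

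The Mir142b peak (chr11:87756841-87756955) had a log2 IP over input of 1.39 and a p of 0.00265, and the gene had no FPKM value. Enrichments and p-values of peaks are the authors' values throughout. The let-7 peaks differed in overlap. The Mirlet7b peak (1.67) overlapped both other lists, while the Mirlet7c-2 peak (1.37) overlapped the acupuncture list alone. Both genes were near 0 in ICH replicates 1 and 2, at 0.009 and 0.016 FPKM for Mirlet7b and 0.003 and 0 FPKM for Mirlet7c-2. Other peaks reached only part of a hairpin. An ICH-only peak in the endothelial gene Egfl7 (chr2:26591424-26592273, plus strand, log2 1.20) held 6 of the 73 bases of the Mir126a hairpin and none of miR-126a-3p. Egfl7 had 5.66 and 3.40 FPKM in ICH replicates 1 and 2. A shared peak in the 3′ UTR of the autophagy gene Vmp1 (chr11:86583865-86584089, log2 1.99) held 23 of the 92 bases of the Mir21a hairpin and none of miR-21a-5p. Vmp1 had 18.4 and 21.3 FPKM in the 2 ICH libraries. The Mirlet7d peak (0.67), which overlapped the acupuncture list alone, held 68 of 103 hairpin bases and was weakly supported, with a p of 0.0367.

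Most ICH peaks lay in untranslated ends of transcripts. The 3′ UTR held 28643 peaks (52.3%), coding or other exons 11918 (21.8%), the 5′ UTR 6651 (12.1%), exons of non-coding RNAs 4472 (8.17%) and introns 2891 (5.28%). Of all ICH peaks, 23.6% had an edge within 100 bases of the 3′ end of the gene and 9.26% within 100 bases of the 5′ end. Enrichment differed by place. The median log2 IP over input was 1.56 in exons of non-coding RNAs, 1.47 in 3′ UTRs, 1.24 in 5′ UTRs, 1.01 in coding or other exons and 0.96 in introns. Gene levels differed too, with medians of 0.43 FPKM in both ICH libraries for non-coding RNA exons and 4.15 to 6.54 FPKM for the other places named. Over all places, the median log2 was 1.67 under 0.1 FPKM, 1.70 at 0.1 to under 1 FPKM and 1.16 to 1.31 at higher levels. The part of gene level in the order of places was not tested.

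ICH-only peaks were placed differently from the shared peaks of the same list. The 3′ UTR held 34.0% of them and 56.1% of the shared peaks. Coding or other exons held 33.9% and 19.2%, and introns 12.2% and 3.84%. The shares in the 5′ UTR were nearly the same, at 12.1% and 12.2%. Only 3.10% of ICH-only peaks reached the 3′ end of their gene, against 27.9% of the shared peaks. Genes with an ICH-only peak in an intron had medians of 6.51 and 6.42 FPKM in ICH replicates 1 and 2, beside 6.54 and 6.41 FPKM for all intronic ICH peaks.

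**Figure D1:**
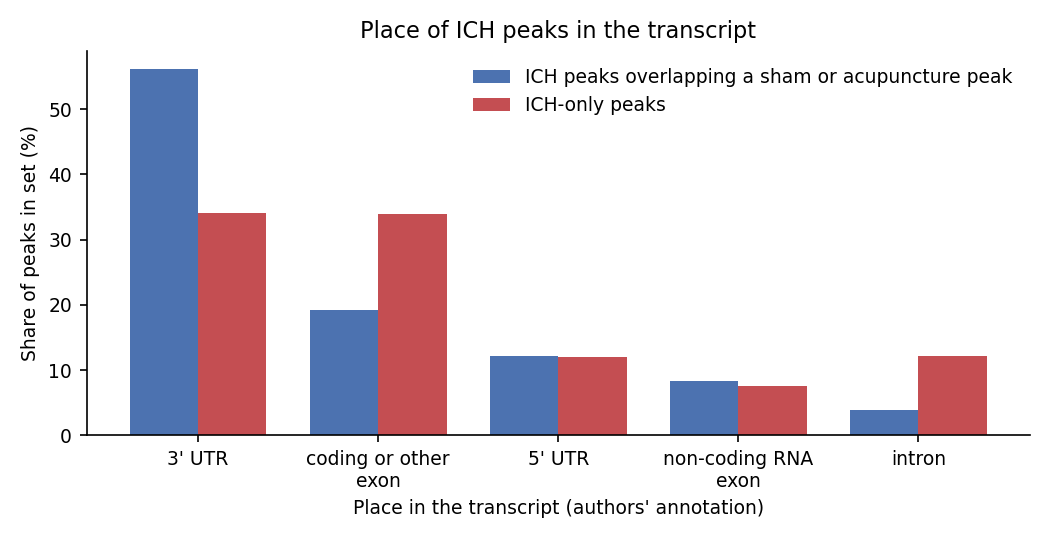
Share of peaks (%, y axis) by place in the transcript (x axis) for ICH peaks that overlap a sham or acupuncture peak (blue) and for ICH-only peaks (red). In the 3′ UTR the shares are 56.1% and 34.0%, and in introns 3.84% and 12.2%.

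Seen the other way, 39.9% of intronic ICH peaks overlapped neither other list, and so did 26.9% of peaks in coding or other exons, 17.2% in 5′ UTRs, 15.9% in exons of non-coding RNAs and 11.3% in 3′ UTRs. The lists of the other groups had the same extremes. In the sham list, 30.3% of intronic and 8.69% of 3′ UTR peaks overlapped no peak of the other lists, and in the acupuncture list 27.3% and 7.14%. Over the whole lists the unshared share was 13.7% for sham and 11.1% for acupuncture, beside 17.3% for ICH, whose list is the longest. ICH peaks overlapped 80.2% of the 48251 sham peaks and 82.6% of the 50105 acupuncture peaks. In turn 71.0% of ICH peaks overlapped a sham peak and 74.6% an acupuncture peak, and 62.9% overlapped both.

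**Figure D2:**
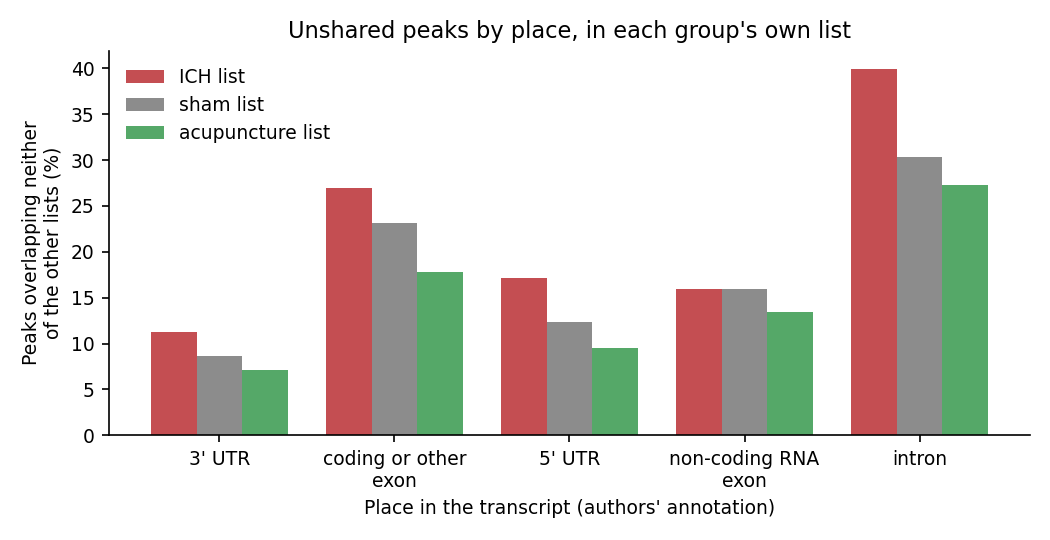
Share of peaks that overlap neither other list (%, y axis) by place in the transcript (x axis), for the ICH list (red), the sham list (grey) and the acupuncture list (green). In all 3 lists introns have the highest share (39.9%, 30.3% and 27.3%) and 3′ UTRs the lowest (11.3%, 8.69% and 7.14%).

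Enrichment of ICH peaks ranged from 0.36 to 8.33 on the log2 scale with a median of 1.24, and 69.6% were at 1 or more. The sham and acupuncture lists had lower medians of 1.07 and 1.12, with 54.6% and 58.2% of peaks at 1 or more. Within the ICH list, the median was 1.56 for peaks that overlapped both other lists and 0.93 for ICH-only peaks. It was 1.003 for those that overlapped the acupuncture list alone and 0.99 for those that overlapped the sham list alone. ICH-only peaks were also shorter. Their median genomic span was 275 bases, against 675 bases for the shared peaks. A longer span, counted with introns, has more bases that can meet another peak, so the overlap rule itself favours short ICH-only peaks. Of ICH peaks with a log2 IP over input under 0.75, 41.0% were ICH-only, and from 1.5 to under 2 only 3.76% were. Among peaks spanning under 150 bases 45.7% were ICH-only, and from 300 to under 1000 bases 10.7%. The level of the gene moved less with the share, which went from 15.7% under 0.1 FPKM through 19.2% at 1 to under 5 FPKM to 12.1% at 100 FPKM or more. A log2 of at least 1 was reached by 37.4% of ICH-only peaks and by 76.4% of shared peaks.

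**Figure D3:**
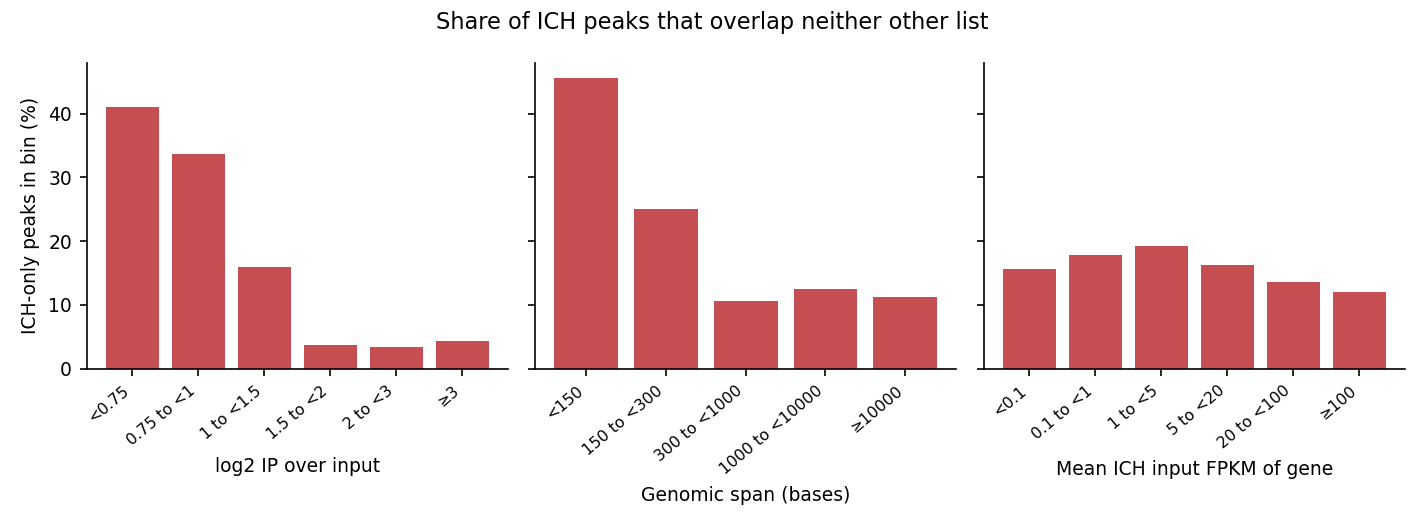
Share of ICH peaks that are ICH-only (%, y axes) by log2 IP over input (left), genomic span in bases (middle) and mean ICH input FPKM of the gene (right). The share is 41.0% under a log2 of 0.75 and 3.76% from 1.5 to under 2, and it stays between 12.1% and 19.2% over gene levels.

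More ICH-only peaks than not lay within 1000 bases of a peak of another list, but few within 100 bases. A sham or acupuncture peak lay within 100 bases of 1415 of them (14.9%), within 1000 bases of 5236 (55.3%) and within 10000 bases of 7972 (84.2%). In all, 9054 ICH-only peaks (95.6%) were on a gene that also had a sham or acupuncture peak. For 377 genes the ICH list was the only list with a peak, and 243 of these have predicted-gene names that start with Gm or end in Rik. Of the 377, 66 had a mean of at least 1 FPKM in the ICH libraries. Of the 65 tested, limma called 1 (1.54%) higher in ICH than in sham, beside 4.95% of all 13666 tested genes. This was Cmtm7 (1.55 and 1.44 FPKM against 0.34 to 0.51 FPKM).

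Genes carried a median of 3 ICH peaks. A single peak was found on 4971 genes, 2 on 3693, 3 to 4 on 5067, 5 to 9 on 3455, and 10 or more on 325. The share of genes with an ICH-only peak rose over these classes from 9.47% through 23.4%, 43.1% and 70.3% to 88.3%. A gene with more peaks has more chances to hold at least 1 ICH-only peak, so a rise follows from counting alone. The most peaks were on Syne1, which links the nucleus to the cytoskeleton (27), Ank2, a membrane scaffold of neurons (24), and Galnt2l (22). Dst and Macf1, giant cytoskeletal linkers, had 20 and 19, Herc1 and Zfhx2 had 20 each, and Itsn1, an endocytic scaffold, and Ryr3 had 19. The most ICH-only peaks were on Herc1, a large ubiquitin ligase, Ryr3, a calcium release channel, and Zbtb20, a transcription factor of astrocyte and hippocampal development (8 each). Next came Rapgef6, Lrp1b, Rnf213 and 9330162G02Rik with 7 each. Herc1 had 7.53 and 7.09 FPKM in ICH replicates 1 and 2 and 7.07 to 7.88 FPKM in the sham libraries. Rnf213, a ubiquitin ligase linked to vessel disease of the brain, had 2.47 and 3.40 FPKM in ICH and 0.59 to 0.76 FPKM in sham, so its groups did not overlap. Cenpe, a kinesin of mitosis, held 6 ICH-only peaks, with 0.59 and 0.88 FPKM in ICH and 0.11 to 0.16 FPKM in sham.

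The strongest ICH peaks were on transcripts of varied function. By log2 IP over input, among genes with at least 1 FPKM, they were on Nxpe3 (8.24, intron), Rpl30, a ribosomal protein (8.08, 3′ UTR), Fras1, a matrix protein (6.98, 5′ UTR), Pkp4, a junction protein (6.91, 5′ UTR), Opa3, a mitochondrial protein (6.87, 3′ UTR), Pabpc1l2a-ps (6.83), Fosb, an immediate early transcription factor (6.02, 5′ UTR) and the non-coding RNA AA414768 (5.94). Those on Opa3 and Pabpc1l2a-ps were ICH-only, and the other 6 were shared. The Pkp4 peak covers 2 listed starts of the gene, and the GGAC of the window shown above begins at base 38 from the downstream start. Pkp4 had 31.0 and 43.2 FPKM in ICH replicates 1 and 2, while Fosb had 1.05 and 1.69 FPKM. A log2 ratio on a lowly expressed gene rests on few input fragments, whose number the files do not give.

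Among ICH-only peaks the next strongest were on Ttll5, a tubulin-modifying enzyme (5.82, intron), Mettl6, a methyltransferase of transfer RNA (4.83), Ttc3 (4.76), Slc25a26, the mitochondrial carrier of S-adenosylmethionine (4.43), Zfp638 (4.12), Axin2, a target and inhibitor of Wnt signalling (4.03), Rpa1, a single-strand DNA binding protein (3.97), Npr3, a natriuretic peptide receptor (3.97), Nova1, a neuronal splicing factor (3.94), and Adhfe1 (3.89). The Axin2 peak (GRCm38 chr11:108920887-108921186) lies in the 5′ UTR, and the gene had 3.26 and 3.59 FPKM in ICH and 3.87 to 4.49 FPKM in sham. Ttc3 was the most highly expressed of these 10, at 40.8 and 53.3 FPKM in the ICH libraries and 42.2 to 44.9 FPKM in sham. Mettl6 had 1.69 FPKM in both ICH libraries and 1.73 to 1.92 FPKM in sham. None of the 10 was called different between ICH and sham by limma (adjusted p 0.185 or more). By place, the highest ICH-only peaks in coding or other exons were on Dnmbp (3.62), Srp54b (2.85) and Lcorl (2.83). In exons of non-coding RNAs, after Pabpc1l2a-ps, they were on Snhg14, the host of an imprinted cluster of small RNAs (2.83), and C4a, a complement gene (2.37).

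Functions were followed through 27 gene lists of 380 entries. The plot of gene lists gives their counts, to be read against the 35.6% of all genes with an ICH peak that hold an ICH-only peak. Of the lists with at least 10 genes with a peak, the highest shares were in matrix and fibroblast genes (9 of 13), Notch and Wnt genes (11 of 16), and transcription and chromatin genes (11 of 16). The lowest were in cytokines, chemokines and receptors (2 of 14), microglia and macrophage genes (3 of 16), immediate early genes (3 of 16) and myelin genes (3 of 14). Counted by peaks, the ICH-only share was 7.14% of 28 peaks on cytokine genes, 34.2% of 38 on cell cycle genes, 31.6% of 57 on endothelium and barrier genes and 11.6% of 121 on chromatin genes, beside 17.3% of all ICH peaks. These counts describe the lists, whose genes differ in length, level and number of peaks.

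**Figure D4:**
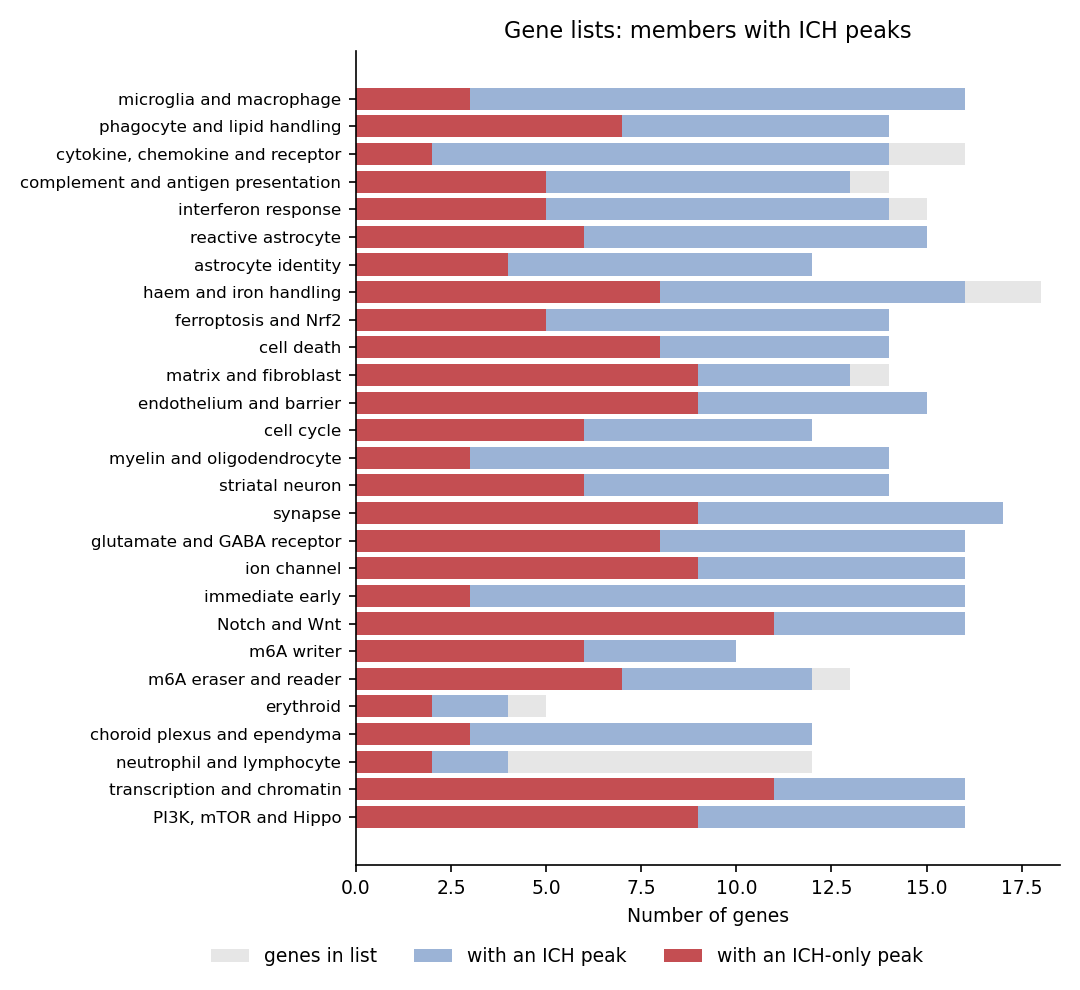
Number of genes (x axis) in each gene list (y axis) in all (grey), with an ICH peak (blue) and with an ICH-only peak (red), drawn over each other from 0. Matrix and fibroblast genes reach 9 with an ICH-only peak of 13 with a peak, and cytokine, chemokine and receptor genes 2 of 14.

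In the microglia, complement, reactive astrocyte, interferon and cell cycle lists, most tested members with an ICH-only peak were called higher in input level in ICH than in sham. Across all 13666 tested genes, limma called 677 higher (4.95%) and 99 lower (0.724%) in ICH than in sham with p-values adjusted by Benjamini-Hochberg, a threshold of 0.05 and a two-sided test. Of genes with an ICH-only peak, those called higher were 3 of 3 tested in the microglia list (Tmem119, C1qc and Trem2), 5 of 5 in complement and antigen presentation (among them Serping1 and H2-K1), 5 of 6 in reactive astrocytes, 4 of 5 in interferon response and 3 of 3 in the cell cycle list. The same lists rose also without regard to peaks. They held 15 of 16, 14 of 14, 13 of 15, 11 of 15 and 7 of 7 tested genes called higher, with median log2 fold changes of 1.71, 1.85, 1.501, 1.90 and 0.99 beside -0.01 over all tested genes. Other glial lists did not share this. None of the 4 astrocyte identity genes and none of the 3 myelin and oligodendrocyte genes with an ICH-only peak was called, and over these whole lists 1 of 12 and 0 of 14 genes were called higher by limma and none lower, with 4 genes of each at an unadjusted p under 0.05. Of the members of the first 5 lists taken by the naming rule, whose calls were repeated with each library left out, Tmem119 was not called without sham replicate 1, 2 or 3 (limma adjusted p 0.0658 to 0.0837). The interferon-induced gene Oasl2 was not called without sham replicate 1, 2 or 3 or ICH replicate 2 (0.0682 to 0.0825).

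Gfap (ENSMUSG00000020932), the intermediate filament of reactive astrocytes, had 23.98, 25.4 and 29.4 FPKM in the sham libraries and 394 and 338 FPKM in ICH replicates 1 and 2. Every ICH value was above every sham value, and its log2 fold change on log2(FPKM + 1) was 3.75 (SE 0.15, limma adjusted p 7.22e-05). Of its 3 ICH peaks, 1 was ICH-only, in the 3′ UTR (chr11:102890719-102890993), with a log2 IP over input of 0.90. C1qc (ENSMUSG00000036896), a chain of complement C1q made by microglia, had 13.3, 14.9 and 17.3 FPKM in sham and 92.0 and 70.9 FPKM in ICH. The groups did not overlap, and the log2 fold change was 2.35 (SE 0.15, adjusted p 0.000407). Its ICH-only peak (chr4:136892255-136893009, 755 bases, log2 IP over input 1.11) covers the RefSeq start whose GGAC window is shown above. Ifitm3, an interferon-induced barrier to virus entry, had 11.0 to 16.6 FPKM in sham and 83.5 and 116 FPKM in ICH, with an ICH-only exon peak of 1.06. Cxcl10, an interferon-induced chemokine, had 0.11 to 0.17 FPKM in sham and 4.86 and 5.98 FPKM in ICH, and its ICH-only 3′ UTR peak was weak (log2 0.77, p 0.000873).

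The largest increases among genes with an ICH-only peak also took in Arg1, the arginase of alternatively activated macrophages, Lilrb4a, an inhibitory receptor of myeloid cells, Tgfbi, a matrix protein, and Lgals9, a galectin. Their log2 fold changes were 2.77 (SE 0.32), 2.55 (SE 0.10), 2.52 (SE 0.14) and 2.47 (SE 0.27), with limma adjusted p from 7.22e-05 to 0.00354. Arg1 had 0.21 to 0.32 FPKM in sham and 8.31 and 7.22 FPKM in ICH. Its ICH-only peak lay in coding or other exons (chr10:24920719-24922288, log2 1.17). Lilrb4a had 2 ICH-only peaks, both intronic and among the weakest described here (0.68 and 0.58). Other called genes with ICH-only peaks were Cd44 (log2 fold change 1.90), the receptor of hyaluronan, Cp, the ferroxidase ceruloplasmin (1.77), Fn1, fibronectin (1.60), Gpnmb of lipid-laden phagocytes (1.93), and the proliferation genes Mki67 (1.83), Top2a (1.49) and Mcm6 (0.99). The ICH-only peak of Mki67 had a log2 IP over input of 2.36, with the gene at 2.64 and 4.00 FPKM in ICH and 0.19 to 0.20 FPKM in sham.

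Striatal neuron genes stood on the other side. Of the 14, all carried an ICH peak, 6 held an ICH-only peak and 8 were called lower in ICH, 3 of them among the 6. Penk, the enkephalin precursor of indirect pathway neurons, had 181, 170 and 183 FPKM in sham and 82.8 and 79.3 FPKM in ICH, without overlap (log2 fold change -1.13, SE 0.11, limma adjusted p 0.00151). Its ICH-only peak lay in the 5′ UTR (chr4:4138179-4138428, log2 0.97). Of all genes with an ICH-only peak, those with called decreases next in size to Penk included Rgs9, Pde1b, Syndig1l, Rem2, Sik1 and Actn2. They fell by 1.09, 0.998, 0.99, 0.91, 0.87 and 0.77 on the log2 scale. Rgs9, a regulator of dopamine receptor signalling in striatum, held 3 ICH-only peaks of 6, at 6.82 ± 1.15 FPKM in ICH (SD, n = 2) and 15.6 ± 1.52 FPKM in sham (SD, n = 3). The call of Rgs9 was lost when sham replicate 1, 2 or 3 or ICH replicate 2 was left out (limma adjusted p 0.102 to 0.162), that of Pde1b without sham replicate 1, 2 or 3 (0.0803 to 0.0954), that of Rem2 without sham replicate 1 or 3 (0.0585 and 0.0571) and that of Sik1 without sham replicate 2 or 3 (0.0819 and 0.0956). The striatal and microglial sums given at the outset moved with these groups, and their part in the presence of peaks was not tested.

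**Figure D5:**
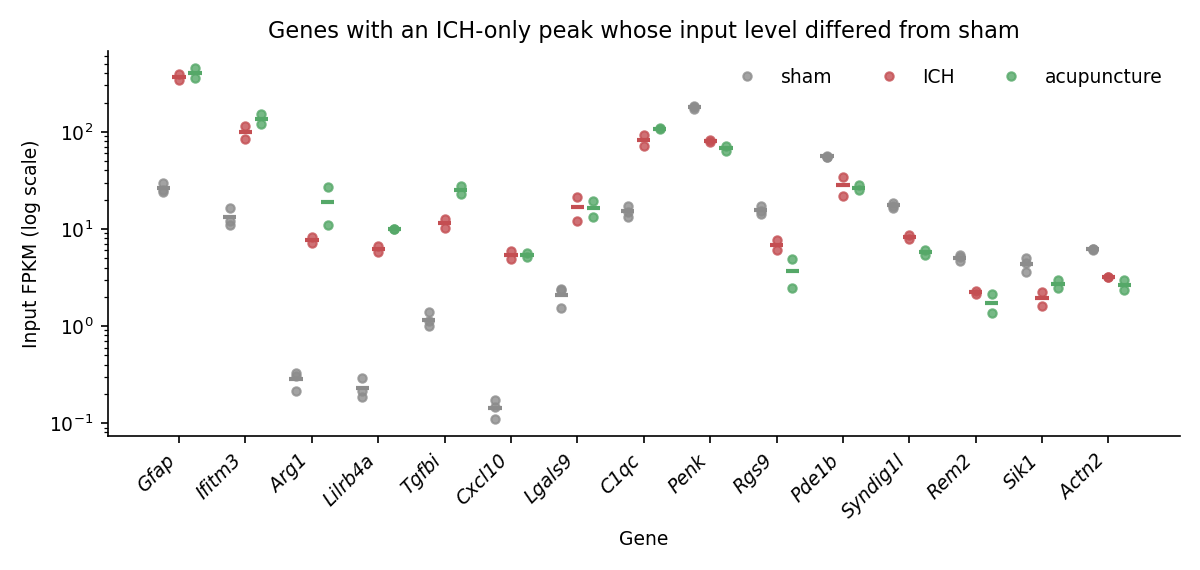
Input FPKM (y axis, log scale) of genes with an ICH-only peak and among the largest called changes of ICH against sham (x axis), in each sham (grey), ICH (red) and acupuncture (green) library, with the group mean as a bar. Gfap goes from 23.98 to 29.4 FPKM in sham to 394 and 338 FPKM in ICH, and Penk from 170 to 183 FPKM down to 82.8 and 79.3 FPKM.

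Genes of haem and iron handling were more often called higher than lower in ICH against sham. Of the 16 tested, 6 were called higher and 1 lower by limma, beside 4.95% and 0.724% of all tested genes. Input levels summed over the 18 genes of the list were 1427 to 1516 FPKM in the ICH libraries and 607 to 645 FPKM in the sham libraries. Of 18, 16 carried an ICH peak and 8 an ICH-only peak (Blvra, Tfrc, Slc40a1, Slc11a1, Slc11a2, Lrp1, Aco1 and Ireb2), of which 2 were called higher (the metal transporters Slc11a1 and Slc40a1) and 1 lower (Tfrc). Tfrc, the transferrin receptor, had 16.3, 16.4 and 16.6 FPKM in sham and 8.92 and 9.80 FPKM in ICH (log2 fold change -0.75, SE 0.09, limma adjusted p 0.00325). Its ICH-only peak was in the 3′ UTR (chr16:32630660-32630834, log2 1.03), the part of the transcript known to hold its iron-responsive elements. Slc11a2, an iron importer, and Lrp1, the receptor of haem bound to hemopexin, had adjusted p of 0.885 and 0.119. The erythroid list carried 6 ICH peaks, 3 of them ICH-only, on Hba-a1 and Alas2. Hba-a1 had 23.6 and 46.8 FPKM in ICH and 62.6 to 107 FPKM in sham (adjusted p 0.0787), and reads of Hba-a1 and its near-identical copy Hba-a2 may not have been told apart by the authors' counting.

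ICH-only peaks made up 31.6% of 57 peaks on endothelium and barrier genes and 22.4% of 58 on matrix genes, beside 17.3% of all ICH peaks. On the endothelium and barrier list the genes with an ICH-only peak were Pecam1, Tjp1, Tek, Kdr, Flt1, Vwf, Mfsd2a, Abcb1a and Vcam1. Pecam1, an adhesion molecule of endothelium, had 2.44 to 2.93 FPKM in sham and 4.33 and 6.24 FPKM in ICH (log2 fold change 0.75, limma adjusted p 0.0294). That call was lost when any single library other than ICH replicate 1 was left out (adjusted p 0.0534 to 0.122). Flt1, a receptor of vascular endothelial growth factor, had 4.86 and 5.20 FPKM in ICH and 3.79 to 4.29 FPKM in sham (adjusted p 0.166), with an ICH-only 3′ UTR peak of 0.98. Of 8 tested matrix genes with an ICH-only peak, 3 were called higher, and over the whole list 6 of 13 tested. Col4a1, a collagen of basement membranes, had 4.29 to 5.48 FPKM in sham and 8.89 and 9.32 FPKM in ICH (log2 fold change 0.77). Its ICH-only peak spans 5087 genomic bases over several exons (chr8:11226341-11231427).

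Synapse, receptor and ion channel genes carried many peaks and no called change. The 17 synapse genes held 111 ICH peaks, the 16 glutamate and GABA receptor genes 97, and the 16 ion channel genes 113. ICH-only peaks were on 9, 8 and 9 of these genes, and limma called no gene of these 3 lists in either direction between ICH and sham, while 4, 0 and 2 genes had an unadjusted p under 0.05. Snap25, a fusion protein of synaptic vesicles, had 237 and 439 FPKM in ICH replicates 1 and 2 and 227 to 283 FPKM in sham, so the replicates differed more than the groups (adjusted p 0.399). Its ICH-only peak lay in coding or other exons (log2 1.16). Grin1, the obligatory NMDA receptor subunit, had an ICH-only exon peak of 1.02 at 32.4 and 48.8 FPKM in ICH. Among chromatin genes, Ash1l and Arid1a had ICH-only exon peaks of 0.92 and 0.93, and among Notch and Wnt genes Ctnnb1 had a 3′ UTR peak of 1.02 and Lrp6 of 0.93. Apc also had an ICH-only peak (1.05), at 2.91 FPKM in ICH replicate 1 and 28.8 FPKM in ICH replicate 2 beside 21.1 to 22.5 FPKM in sham, so its ICH level is not settled by these libraries.

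Transcripts of the m6A machinery carried ICH peaks, as did 94.4% of all genes averaging 1 FPKM or more in the ICH libraries. All 10 genes of the writer list had an ICH peak, 44 in all, and 6 had an ICH-only peak. The list includes Zfp217 (6 peaks, 1 of them ICH-only), which is not itself a writer. Of 13 erasers and readers, 12 had an ICH peak, 52 peaks in all, and 7 an ICH-only peak. Igf2bp1, at 0.02 FPKM or less in each library, had none. By peaks, the ICH-only share was 18.2% for the writer list and 21.2% for erasers and readers, near the 17.3% of all ICH peaks. The catalytic subunit Mettl3 held 4 peaks, of which the ICH-only one was intronic and weak (log2 0.56), at 2.70 and 2.37 FPKM in ICH and 2.58 to 2.72 FPKM in sham. Its partner Mettl14 held 6, with an ICH-only exon peak of 0.83. The ICH-only peak of Wtap, 500 bases in the 5′ UTR (chr17:12992147-12992646), was stronger at 1.84 and covers the start shown above. Mettl16 and Alkbh5 had the most ICH-only peaks of these genes, 3 of 9 and 3 of 7, and the reader Ythdc1 had the most peaks (10). Alkbh5 had 8.46 and 5.40 FPKM in ICH and 8.38 to 9.27 FPKM in sham, and Fto 10.5 and 10.9 FPKM in ICH and 10.01 to 11.5 FPKM in sham. None of the 10 genes of the writer list and the 10 erasers and readers tested was called between ICH and sham by limma. Of them, 1 and 0 had an unadjusted p under 0.05.

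Called changes were read against the presence of an ICH-only peak over all genes. Of 5037 tested genes with an ICH-only peak, 236 were higher in ICH than in sham (4.69%) and 25 lower (0.496%), with a median log2 fold change of 0.01 and 992 genes at an unadjusted p under 0.05. Of 7856 with ICH peaks but none ICH-only, 417 were higher (5.31%) and 70 lower (0.891%). Median levels were 3.94 and 3.84 FPKM in ICH replicates 1 and 2 for genes with an ICH-only peak, and 3.14 and 3.02 FPKM for the others. Genes with under 1 FPKM in sham and at least 1 FPKM in ICH numbered 806 among those with an ICH peak, and 300 of them (37.2%) had an ICH-only peak, beside 4788 of 12167 (39.4%) where both levels were at least 1 FPKM. Of their peaks, 21.9% and 17.02% were ICH-only. The counts of called genes depended on the libraries. They were 129 to 139 higher and 4 to 10 lower without sham replicate 1, 2 or 3. When an ICH replicate was left out, the other stood alone and was assumed to vary like the other groups. The counts then differed strongly with which of the 2 was left out.

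Acupuncture against ICH gave 5 genes called higher of 13666 (0.0366%) and none lower in limma. Of the 5, named after their values were seen, Ctla2a carried 2 shared ICH peaks and Vps25 and Rps12-ps4 carried 1 each, while Rpl10-ps3 and Gm14150 carried none. None of the 5037 genes with an ICH-only peak was called in either direction, while 982 had an unadjusted p under 0.05. Gfap had 451 and 362 FPKM in the acupuncture libraries, and Penk 71.9 and 63.0 FPKM, so both lay on the side of the ICH values. When an ICH replicate was left out, 1 ICH library stood alone. The counts then differed strongly with which of the 2 was left out, and they are not read here as an effect of acupuncture.

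Differential peaks were also given by the authors for pairs of groups. In the authors' deposited table of ICH against sham, 78.7% of 23124 peaks were higher in ICH. Of ICH-only peaks, 889 (9.38%) overlapped a peak of the authors' deposited table of ICH against sham, 865 of them one that was higher in ICH and 24 one that was lower. Of the shared ICH peaks, 47.1% overlapped one in the authors' deposited table, 16584 of them one higher in ICH and 4879 one lower (a peak can overlap both). ICH-only peaks were chosen by their absence from the sham and acupuncture lists. Their lean towards ICH in both comparisons is therefore largely built in and is no separate support. In the authors' deposited table of acupuncture against ICH, 81.3% of 20948 peaks were higher in ICH. There 1664 ICH-only peaks (17.6%) overlapped an entry of the authors' deposited table, 1634 of them one higher in ICH and 30 one lower. Of the shared ICH peaks 39.3% did, 14889 of them with one higher in ICH and 2976 with one lower. Enrichment was higher over the ICH list as a whole, with a median log2 of 1.24 against 1.07 in sham and 1.12 in acupuncture. The part of this list-wide difference in the shares higher in ICH was not tested.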

How the data were processed

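m6A and input libraries of 14 samples from mouse brain were deposited by the authors as 1 peak list per group, tables of differential peaks and input FPKM. Tools named in the submitters' processing notes are edgeR, fastp, HOMER, HISAT2 and StringTie, with neither version nor role, beside the builds GRCh38 and hg38. How peaks were called is not given there. The identifiers in the files are those of mouse Ensembl genes. Among 25299 symbols shared with the GRCm38 annotation, chromosome and a start or end (to 1000 bases) matched for 96.3%, so GRCm38 is used. Sham and acupuncture FPKM columns, headed control and EA, were matched by elimination. The FPKM table holds 2 further columns that match no sample and were not used, and whether these entered the peak lists is not stated. Log2 IP over input, p-values and adjusted p-values in the peak lists, and log2 differences in the differential tables, are deposited values computed by the authors. FPKM per gene was computed by the authors, per the file headers. FPKM gives no depth, so its precision is unknown.

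Peaks were compared as whole genomic spans, introns included, and overlapped when they shared at least 1 base on the same strand (bedtools 2.31.1). Starts in the lists count from 0, so 1 was added. FPKM was tested with limma 3.58.1 (R 4.3.3), with a mean-variance trend, on log2(FPKM + 1) for genes averaging 1 FPKM or more, in 1 fit of 7 libraries, with adjustment over all 13666 genes. The overlap and limma steps were tested on simulated data. The p-values measure the spread between these samples, which may be technical. Genes named are the 8 with most ICH peaks, the 8 highest peaks, the 12 highest ICH-only peaks and genes with most of them, the 8 largest called changes per direction among genes with an ICH-only peak, up to 3 members per list by smallest p, the m6A genes and the 3 highest ICH-only peaks per place. A few genes the rule took are not reported here. Other names were chosen after values were seen. Members and lists were chosen with earlier results of these data known. Tables and figures were made in Python 3.11.15 with pandas 2.3.3, numpy 2.4.6, scipy 1.17.1 and matplotlib 3.10.9.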

Additional observations from a re-analysis of the deposited data

How the results depend on the processing

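The number of ICH peaks and of genes with a peak stayed within 1.5 times at an adjusted p under 0.05, at a log2 IP over input of at least 1, and under both. The ICH-only share of 17.3% became 26.4% when 50% of the ICH peak had to be covered, 16.6% on either strand, 9.29% at a log2 of at least 1, 20.6% for ICH peaks spanning at most 1000 bases, and 30.0% when all 3 lists were so limited, a limit chosen after seeing the data. Overlap of exon blocks was not run, because the peak lists hold no block columns. At an adjusted p under 0.05 and a log2 of at least 1, shares by place were 58.2% in 3′ UTRs, 16.0% in coding or other exons, 12.8% in 5′ UTRs, 9.24% in exons of non-coding RNAs and 3.43% in introns.

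Of genes with an ICH-only peak, those called higher in ICH than in sham numbered 236. Restricted to genes with no peak in the other lists this was 1 higher (Cmtm7) and 0 lower of 65 tested, beside 4.95% and 0.724% of all tested genes. Without the filter on low values 9 were lower instead of 25. Leaving out 1 library at a time gave 129 to 885 higher and 4 to 891 lower, and for acupuncture against ICH 0 to 1040 higher and 0 to 775 lower. With the replicate number as a block, 114 were higher and 4 lower. The numbers are not stated to pair samples, and deviations of same-numbered ICH and sham libraries correlated at 0.01 and -0.01, and of acupuncture and ICH libraries at 0.09. Of the 35 genes taken by the naming rule and called in ICH against sham, none changed direction under any alternative. Calls kept were 33 with a pseudocount of 0.1, 27 without the filter, 33 with quantile normalization, 26 under the block, 27, 27 and 26 without sham replicates 1, 2 and 3, 35 and 30 without ICH replicates 1 and 2, and 33 without either acupuncture replicate. The cause of these shifts was not tested.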

Other observations

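Some of the genes that rose most in ICH carried no ICH peak, and they are named here after their values were seen. Of 677 genes called higher in ICH than in sham by limma, 653 carried an ICH peak (96.5%), as did 94.3% of all tested genes. Among the 24 without a peak was Hmox1, the enzyme that degrades haem, with 2.08 to 2.67 FPKM in sham and 144 and 141 FPKM in ICH (limma log2 fold change 5.45, SE 0.11, adjusted p 6.01e-06). The others with the largest changes were S100a11, Fcer1g, B2m, Hspb6, Gbp2, Ifitm2 and Cd53. B2m, the light chain of MHC class I, had 247 and 935 FPKM in ICH replicates 1 and 2 and 65.5 to 66.2 FPKM in sham.

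Of genes for which the ICH list alone had a peak, the most highly expressed included predicted genes and a gene named as a ribosomal protein pseudogene. The predicted gene Gm11808 had 87.5 and 107 FPKM in ICH replicates 1 and 2, and the pseudogene Rpl14-ps1 had 97.1 and 60.6 FPKM. Reads of a pseudogene and of its parent gene may not have been told apart by the authors' counting. Dstn, which encodes the actin-severing protein destrin, had 67.8 and 70.8 FPKM in ICH and 63.0 to 64.9 FPKM in sham, with a 3′ UTR peak of 1.77. Rps27rt differed between the ICH libraries, at 18.7 and 79.7 FPKM.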
